A study of Canis lupus familiaris with 4 samples.

Results

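Amino acid transporters are the membrane proteins through which a T cell takes up leucine, glutamine, arginine, cystine and other amino acids for protein synthesis and growth. The 10 transporter genes described here were chosen by name: SLC3A2, SLC7A5, SLC7A6, SLC7A11, SLC7A1, SLC43A1, SLC1A5, SLC1A4, SLC38A1 and SLC38A2. Earlier results of these data were known when they were chosen. All 10 were present, each as a row of its own, among the 11691 genes listed in both deposited tables.

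The libraries came from messenger RNA of CD8+ T cells, cultured from 2 healthy dogs of mixed breed, 1 female and 1 male per the labels. Blood mononuclear cells were cultured in IL-2 (2500 IU/mL) and 2-mercaptoethanol (50 µM) over 14 to 20 days, and the purified CD8+ cells stayed in both supplements in either arm. The exosome arm received exosomes, small vesicles that cells release, from the dog lymphoma cell line CLBL-1 (diffuse large B cell type), and the control arm an equal amount of PBS. Each arm held 2 libraries, 1 per dog, which form pair 1 and pair 2, and the ages of the dogs were not given. The exosome dose is 50 µg/mL in the series' design text, whereas the treatment label lists 50, 100 and 200 µg/mL. Exposure is 48 h in the labels, but the column names read 24 h in the table of pair 1 and 48 h in that of pair 2, so that dog, sex and a possible difference in time cannot be told apart. All exosomes came from 1 cell line, and nothing in the labels describes a vesicle control from healthy cells.

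Over the 11691 shared genes the libraries held 9417298 to 12325953 reads. All 7 listed T cell markers were measured and 0 were called (also 0 at an unadjusted p under 0.05 in limma). CD3E, part of the T cell receptor, ranged from 530 to 873 scaled reads (read counts over 1 factor per library) and CD8A, a chain of the CD8 coreceptor, from 286 to 488. The other chain, CD8B, was at 73.4 scaled reads with PBS and 72.7 with exosomes in pair 1, against 479 and 528 in pair 2. CD5, named after its values were seen, was at 13.3 and 23.6 in pair 1, against 347 and 411 in pair 2, so that both markers were far lower in pair 1. With exosomes 5 of the 7 were lower in both pairs (32.5% of all genes), 1 (CD5) was higher in both (27.8%) and 1 (CD8B) was opposite (39.7%). CD4 was at 3.22 to 11.6 and the B cell marker MS4A1 at 3.62 to 10.7. Of the 5 listed NK cell markers 4 were measured, and their summed scaled count was 466 with PBS and 772 with exosomes in pair 1 and 247 and 228 in pair 2. NCR1, NCR3 and KLRB1 were lower and KLRD1 was higher with exosomes in both pairs. None was called by limma (smallest adjusted p = 0.0526, NCR3). DESeq2 called 1 of the 4 higher (0.53% of all genes) and 2 lower (0.915%). Only 3 of 7 B cell and 2 of 6 monocyte markers were measured, and CD79A and ITGAM share their rows with other genes. The part of such cells in the results below was not tested. In bulk RNA, fewer cells of a type and less RNA per cell cannot be told apart.

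As background, known mainly from human and mouse cells, SLC3A2 (4F2hc, the heavy chain of CD98) is joined by a disulfide bond to 1 of several light chains, and the light chain sets which amino acids cross the membrane. SLC7A5 (LAT1) is the light chain that takes up leucine and other large neutral amino acids in exchange for intracellular ones such as glutamine. Activated T cells raise LAT1 and CD98, and leucine that enters this way feeds the mTORC1 growth pathway. SLC1A5, SLC38A1 and SLC38A2 carry glutamine and other small neutral amino acids along with sodium. The transcription factor ATF4, made when amino acids are short or proteins misfold, is known to switch on several of these genes, and MYC is known to do so in activated T cells.

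The comparison asked whether T cells cultured with lymphoma exosomes differed from their PBS controls in these transcripts. SLC7A5 was higher with exosomes in both pairs, by 3.65-fold and 1.85-fold, and was the only member called. The heavy chain SLC3A2 was 2.62-fold and 1.36-fold higher without passing the test. SLC1A4, SLC7A1 and SLC7A11 also had higher values in both pairs, while SLC7A6, SLC43A1, SLC1A5, SLC38A1 and SLC38A2 had folds of opposite sign in the pairs. Scaled reads come unaltered from the deposited tables and are given library by library. A gene was called at an adjusted p under 0.05 from limma on log2(scaled reads + 1) with the pair as a block, adjusted over all 11691 genes. No test is possible inside a pair, which has a single library for each arm, and the 95% interval given with a within-pair fold covers counting error only.

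**Figure D1:**
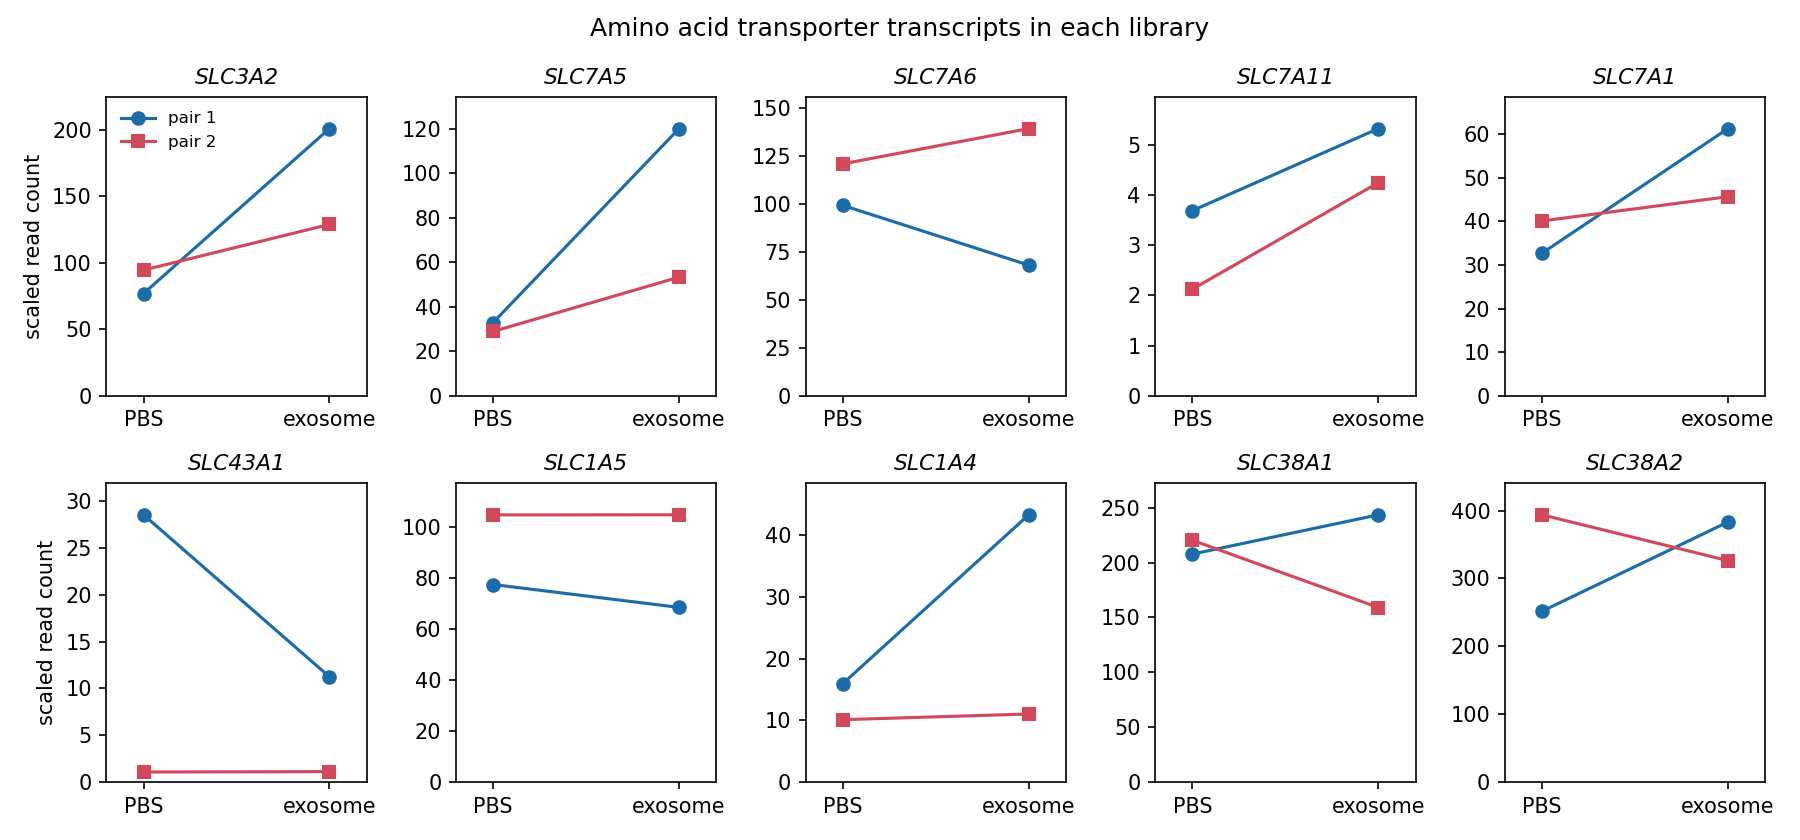
Scaled reads (vertical axis, from 0, a scale of its own per gene) of the 10 transporters in the PBS and exosome libraries, with a line joining the libraries of pair 1 (circles) and pair 2 (squares). Each point is 1 library. The lines slope upward in both pairs for SLC7A5, SLC3A2, SLC1A4, SLC7A1 and SLC7A11. For SLC38A1 and SLC38A2, among others, they slope in opposite directions.

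Of the 10 members 1 was called higher, against 0.248% of all genes called higher, and 0 were called lower, against 0.496% of all genes. With an unadjusted p under 0.05 in limma, 4 members were higher and 0 lower, beside 5.95% and 9.96% of all genes. The number called by edgeR was 0, and edgeR called 0% of all genes. Without adjustment at 0.05, edgeR had 4 members higher and 0 lower, beside 655 and 985 of all 11691 genes. DESeq2 called SLC7A5 alone, as higher, beside 0.53% of all genes called higher and 0.915% lower. Values were higher with exosomes in both pairs for 5 members (27.8% of all genes), lower in both for 0 (32.5%) and opposite for 5 (39.7%). For 4 members the 2 exosome libraries lay above both PBS libraries (12.9% of all genes). Over the 10, log2 folds had a median of 0.57 (pair 1) and 0.16 (pair 2), beside -0.02 and -0.03 over all genes. At 10 genes these counts describe the members and were not tested against other genes.

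The heavy chain and its partners come first. Pair 1 held 76.9 scaled reads of SLC3A2 with PBS and 201 with exosomes, and pair 2 held 94.6 and 129. Both exosome libraries lay above both PBS libraries, with the exosome library of pair 1 highest. Within pairs the log2 fold was 1.39 (interval 1.28 to 1.499) and 0.45 (0.33 to 0.57). The fit over both pairs gave a log2 fold of 0.91 ± 0.26 (SE, limma adjusted p = 0.107). SLC3A2 passed the threshold when genes with a mean under 20 scaled reads were left out (adjusted p = 0.00175) and with a pseudocount of 5 (adjusted p = 0.0094). Those limma settings called 3.07% and 1.73% of genes higher and 5.39% and 3.49% lower. DESeq2 gave SLC3A2 an adjusted p of 0.0609, with 0.53% of genes called higher and 0.915% lower.

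SLC7A5, the leucine-carrying light chain, was at 32.9 scaled reads with PBS and 120 with exosomes in pair 1, whereas pair 2 held 28.9 and 53.3. The PBS libraries were close to each other, and both exosome libraries lay above them. The log2 fold was 1.87 in pair 1 (interval 1.71 to 2.03) and 0.89 in pair 2 (0.68 to 1.09), and the intervals of the pairs did not overlap. In pair 1, 1.04% of all genes had a higher fold, and in pair 2 4.29%. Over both pairs the fitted log2 fold was 1.35 ± 0.27 (SE, limma adjusted p = 0.0412). This SE is moderated (1 residual and 11.35 prior degrees of freedom) and so reflects the spread of all genes more than that of the 2 pairs. The call held in DESeq2 (adjusted p = 0.00192). It was lost in edgeR (0.167), in limma-voom (0.13) and in limma without the pair block (0.999). The call was also lost whenever 1 library was left out, in fits that have no block. All of these fits that lost it called 0 genes in either direction, so the loss is not particular to SLC7A5.

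In both pairs the fold of SLC7A5 exceeded that of its heavy chain. The difference of their log2 folds, a measure that no scaling of the libraries alters, was 0.48 in pair 1 (interval 0.29 to 0.68) and 0.44 in pair 2 (0.20 to 0.67). These intervals cover counting error only, and the difference was not tested across dogs.

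SLC7A6 (y+LAT2), a light chain that releases arginine in exchange for neutral amino acids, differed from SLC7A5. Pair 1 held 99.4 scaled reads with PBS and 68.1 with exosomes, and pair 2 held 121 and 139, so that pair 1 held the lower level in both arms. Its log2 fold was -0.54 in pair 1 (interval -0.68 to -0.41) and 0.20 in pair 2 (0.10 to 0.31), with a fitted value of -0.17 ± 0.25 (SE, limma adjusted p = 0.826). The log2 fold of SLC7A5 exceeded that of SLC7A6 by 2.41 in pair 1 (interval 2.20 to 2.62) and by 0.68 in pair 2 (0.45 to 0.91).

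SLC7A11 (xCT), the light chain that takes up cystine in exchange for glutamate, was at the low end of detection, with 20 to 54 reads per library. Pair 1 held 3.69 scaled reads with PBS and 5.33 with exosomes, and pair 2 held 2.12 and 4.25. Both exosome libraries lay above both PBS libraries. The log2 fold was 0.53 in pair 1 (interval -0.06 to 1.13) and 1.00 in pair 2 (0.24 to 1.82), and it was not distinguishable from 0 within pair 1 at this depth. The fitted log2 fold, which the pseudocount of 1 pulls towards 0 at such levels, was 0.59 ± 0.23 (SE, limma adjusted p = 0.232).

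**Figure D2:**
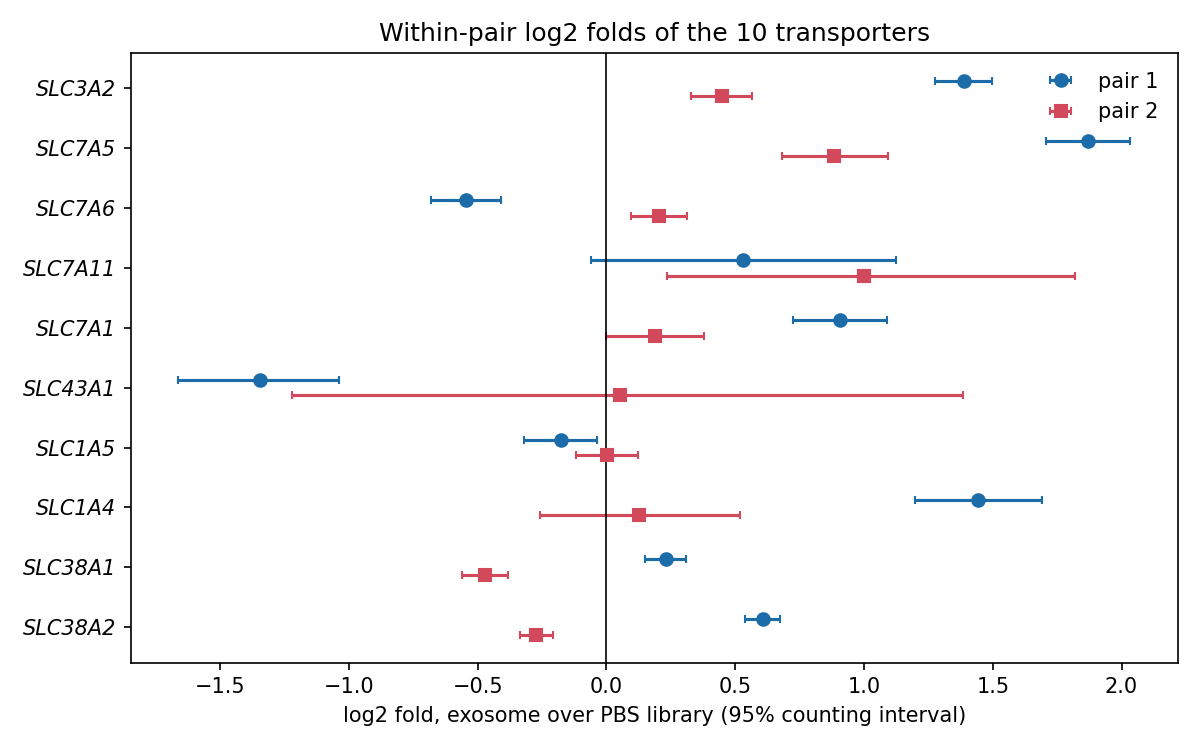
Log2 fold of the exosome over the PBS library (horizontal axis) for each transporter in pair 1 (circles) and pair 2 (squares), with 95% counting intervals as bars. Both intervals lie above 0 for SLC3A2 and SLC7A5 only, and they lie on opposite sides of 0 for SLC7A6, SLC38A1 and SLC38A2.

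Among carriers that work without the heavy chain, SLC7A1 (CAT1) brings in arginine, lysine and ornithine. Pair 1 held 32.7 scaled reads with PBS and 61.3 with exosomes, and pair 2 held 40.1 and 45.7. The exosome libraries lay above the PBS libraries, by a narrow margin in pair 2. The log2 fold was 0.91 in pair 1 (interval 0.73 to 1.09) and 0.19 in pair 2 (-0.002 to 0.38), with a fitted value of 0.53 ± 0.25 (SE, limma adjusted p = 0.32).

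SLC43A1 (LAT3), which lets branched-chain amino acids and phenylalanine through without sodium, had the widest gap between the PBS libraries among the 10. With PBS and with exosomes it was at 28.6 and 11.2 scaled reads in pair 1, while pair 2 held 1.06 and 1.101, which rest on 10 and 14 reads. Between the PBS libraries the log2 ratio of pair 2 to pair 1 was -4.75 (interval -5.82 to -3.85), and 1.09% of all genes had a larger absolute ratio there. With exosomes its log2 fold was -1.35 in pair 1 (interval -1.66 to -1.04). In pair 2 it was 0.05, with a wide interval of -1.22 to 1.38 from these few reads. The fitted log2 fold was -0.62 ± 0.29 (SE, limma adjusted p = 0.329).

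SLC1A5 (ASCT2), a sodium-dependent exchanger and a main route for glutamine, had values close together. Pair 1 held 77.5 scaled reads with PBS and 68.5 with exosomes, and both libraries of pair 2 held 105. Log2 folds were -0.18 in pair 1 (interval -0.32 to -0.04) and 0.00056 in pair 2 (-0.12 to 0.12), and the pairs differed more from each other than the arms did. Fitted over both, the log2 fold was -0.09 ± 0.23 (SE, limma adjusted p = 0.91).

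Its relative SLC1A4 (ASCT1), an exchanger of alanine, serine, cysteine and threonine, was at 15.9 scaled reads with PBS and 43.3 with exosomes in pair 1, whereas pair 2 held 10.1 and 11.01. The exosome library of pair 1 was far above the other 3 libraries, and the groups overlapped. This is a log2 fold of 1.44 in pair 1 (interval 1.20 to 1.69) and 0.13 in pair 2 (-0.26 to 0.52). Over both pairs the fit gave 0.75 ± 0.29 (SE, limma adjusted p = 0.226). It was called (adjusted p = 0.0151) when genes with a mean under 20 scaled reads were left out, a limit that SLC1A4 passed at a mean of 20.1. Without the exosome library of pair 1 the fitted log2 fold turned to -0.19. That fit has no block, so that the difference between the PBS libraries of the dogs enters the fold.

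SLC38A1 (SNAT1) and SLC38A2 (SNAT2), sodium-coupled carriers of glutamine and alanine, are neighbouring genes in the RefSeq annotation of the assembly UU_Cfam_GSD_1.0. For SLC38A1, pair 1 held 208 scaled reads with PBS and 244 with exosomes, and pair 2 held 220 and 159. For SLC38A2, pair 1 held 252 and 383, and pair 2 held 394 and 326. For both genes the exosome library was the higher of its pair in pair 1 and the lower in pair 2, so that the groups overlapped. In that annotation SLC38A2 overlaps LOC119866347, and SLC43A1 overlaps a long noncoding RNA gene. Neither partner has a row here, and reads of such overlaps cannot be told apart without strand.

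The log2 fold of SLC38A1 was 0.23 in pair 1 (interval 0.15 to 0.31) and -0.47 in pair 2 (-0.56 to -0.38). That of SLC38A2 was 0.61 in pair 1 (interval 0.54 to 0.67) and -0.27 in pair 2 (-0.34 to -0.21). In both pairs the fold of SLC38A2 exceeded that of SLC38A1, by 0.38 in pair 1 (interval 0.27 to 0.48) and 0.20 in pair 2 (0.09 to 0.31) on the log2 scale. The fitted log2 folds were -0.12 ± 0.25 (SE, limma adjusted p = 0.88) for SLC38A1 and 0.17 ± 0.26 (SE, limma adjusted p = 0.834) for SLC38A2.

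**Figure D3:**
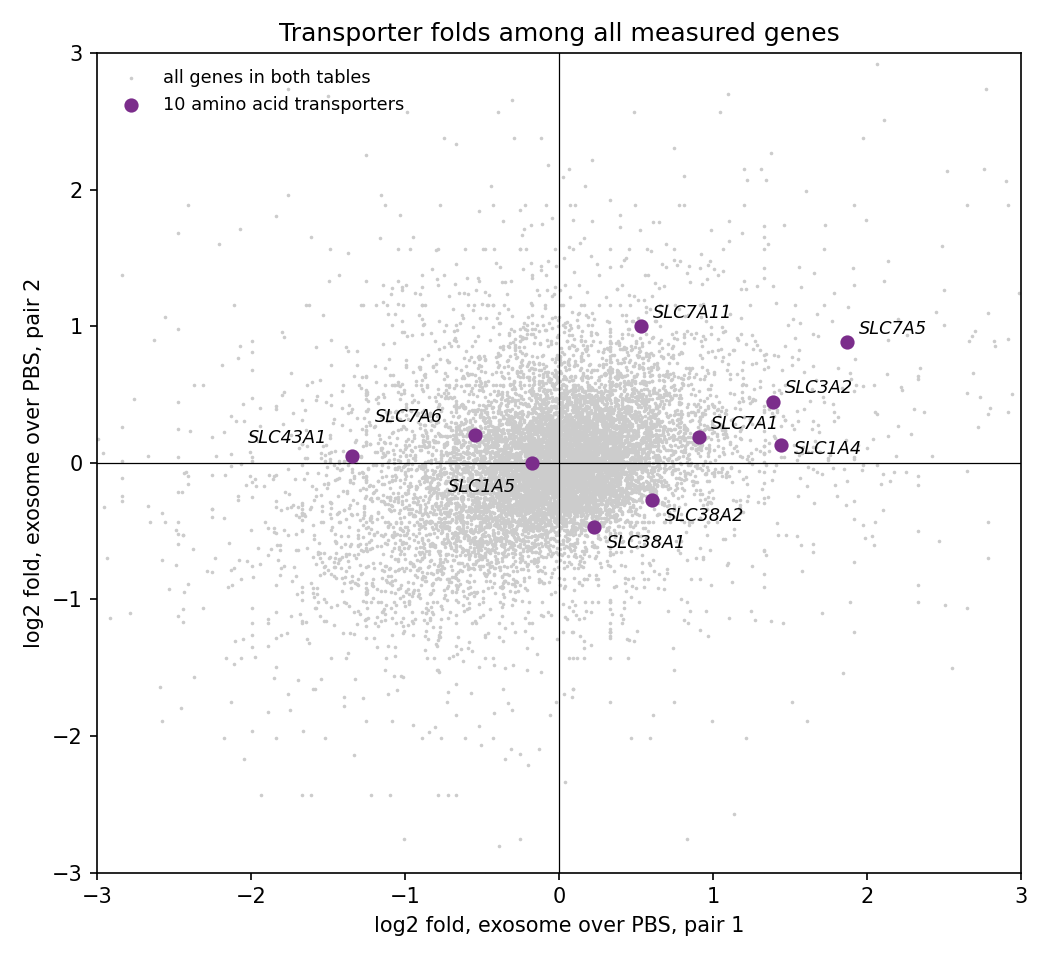
Log2 fold of exosome over PBS in pair 1 (horizontal axis) against pair 2 (vertical axis) for all 11691 genes (grey) and the 10 transporters (purple). Axes end at 3 in each direction, which leaves out 60 genes. SLC7A5, SLC3A2, SLC1A4, SLC7A1 and SLC7A11 lie to the upper right of 0, and no transporter lies to the lower left.

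More transporters were past 1.5-fold in pair 1. Of the 10 members 5 were at least 1.5-fold higher with exosomes in pair 1 (10.8% of all genes) and 1 was at least 1.5-fold lower (17.5%). In pair 2, 2 were at least 1.5-fold higher (9.29%) and 0 at least 1.5-fold lower (10.1%). In the authors' deposited table of pair 1, SLC7A5, SLC3A2, SLC38A2, SLC1A4 and SLC7A1 were past the authors' thresholds for higher genes (1.5-fold and an unadjusted p under 0.05), as were 5.25% of the genes in it. SLC43A1 was past those for lower genes, as were 6.49%. In the authors' deposited table of pair 2, SLC7A5 alone was past them, with an adjusted p of 0.0468, where 1.99% of genes were higher and 2.95% lower. Those p-values compare 1 library with 1 and so say nothing about the spread between dogs.

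With PBS alone, the log2 ratio of pair 2 to pair 1 lay between -0.19 (SLC7A5) and 0.30 (SLC3A2) for SLC3A2, SLC7A5, SLC7A6, SLC7A1 and SLC38A1. It was 0.44 for SLC1A5, 0.65 for SLC38A2, -0.66 for SLC1A4 and -0.80 for SLC7A11. With exosomes the same ratio was -1.17 for SLC7A5, -0.64 for SLC3A2 and -1.98 for SLC1A4, so that pair 1 held the higher level of these genes. A larger absolute ratio was seen there in 18.8%, 37.3% and 8.96% of all genes. The ratio was also negative for SLC43A1 (-3.35), SLC38A1 (-0.61), SLC7A1 (-0.42), SLC7A11 (-0.33) and SLC38A2 (-0.23). Pair 2 held the higher level of SLC7A6 (1.03) and SLC1A5 (0.61).

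Among known regulators of these genes, ATF4 rose with a fitted log2 fold of 1.24 ± 0.24 (SE, limma adjusted p = 0.0403), and MYC had lower values in both pairs without being called. For ATF4, pair 1 held 395 scaled reads with PBS and 1105 with exosomes, and pair 2 held 394 and 792. For MYC, pair 1 held 127 and 23.3, and pair 2 held 176 and 122 (log2 fold -1.46 ± 0.35, SE, limma adjusted p = 0.0648). MTOR, the kinase of mTORC1, was higher with exosomes by 0.34 and 0.27 on the log2 scale in the pairs and was not called (limma adjusted p = 0.584).

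Of 57 other amino acid transporter genes listed, 27 were measured, of which SLC7A3 and SLC25A44 share their rows with other genes. By limma, edgeR or DESeq2, 0 of the 27 were called. Before adjustment, 2 of them were higher and 6 lower at p under 0.05 in limma, beside 5.95% and 9.96% of all genes. In both pairs 6 had higher (27.8% of all genes) and 10 had lower values (32.5%), and 11 were opposite (39.7%). Log2 folds of the 27 had a median of -0.37 (pair 1) and 0.00004 (pair 2). SLC16A10 (TAT1), a carrier of aromatic amino acids, was at 48.8 scaled reads with PBS and 21.5 with exosomes in pair 1, and pair 2 held 12.2 and 6.45 (log2 fold -0.99, limma adjusted p = 0.0627). SLC1A2, a glutamate carrier, was at 5.42 and 3.16 in pair 1, and pair 2 held 59.1 and 24.5 (log2 fold -0.93, limma adjusted p = 0.0792). SLC38A5 (SNAT5), a further glutamine carrier, was at 4.94 and 2.27 in pair 1, and pair 2 held 14.2 and 8.42 (log2 fold -0.78, limma adjusted p = 0.112). SLC15A4, a lysosomal carrier of histidine and small peptides, had the highest fitted fold of the 27, with 59.3 and 156 in pair 1, while pair 2 held 75.8 and 96.3 (log2 fold 0.86, limma adjusted p = 0.134).

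**Figure D4:**
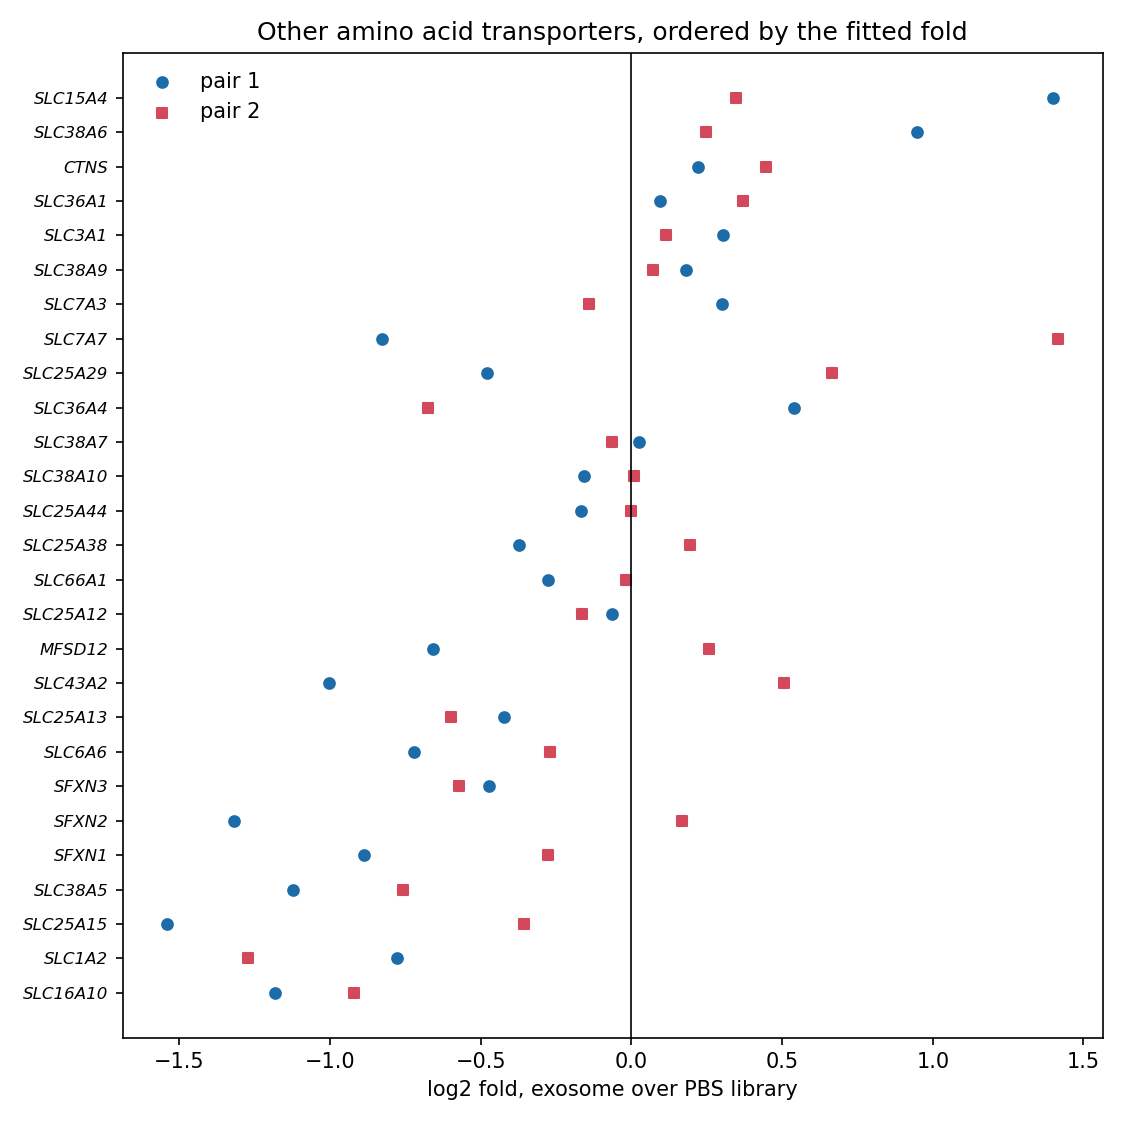
Log2 fold of exosome over PBS (horizontal axis) in pair 1 (circles) and pair 2 (squares) for the 27 other amino acid transporters measured, ordered by the fold fitted over both pairs. SLC15A4 stands at the top and SLC16A10 at the bottom, and none of the 27 was called by limma. SLC7A3 and SLC25A44 share their rows with other genes.

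Genes through which cells sense or use amino acids were also listed. All 38 listed genes of amino acid sensing by mTORC1 were measured, and 0 were called by limma. Before adjustment, 5 were higher and 2 lower at p under 0.05, beside 5.95% and 9.96% of all genes. SEH1L and MIOS share their rows with other genes. In both pairs 17 had higher (27.8% of all genes) and 8 had lower values (32.5%), and 13 were opposite (39.7%). CASTOR2, related to an arginine sensor, was at 8.40 and 27.6 scaled reads in pair 1, and pair 2 held 2.87 and 4.01 (limma adjusted p = 0.107). FLCN and FNIP1, partners in a complex that acts on the Rag GTPases, were each higher with exosomes in pair 1, FLCN at 46.5 and 137 and FNIP1 at 52.03 and 132. Pair 2 held 61.7 and 64.3 of FLCN and 50.2 and 56.3 of FNIP1, and neither gene was called (limma adjusted p = 0.227 and 0.215). EIF4EBP1, a translation repressor that mTORC1 inactivates, was at 5.26 and 7.10 in pair 1, and pair 2 held 5.20 and 11.01 (limma adjusted p = 0.2).

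Of 26 listed genes of ATF4 and its targets 21 were measured. By limma 2 were called higher (ATF4 and DDIT3) and 0 lower, beside 0.248% and 0.496% of all genes. DESeq2 called 2 higher (0.53% of all genes) and edgeR 0. Before adjustment, 6 were higher and 1 lower at p under 0.05 in limma, beside 5.95% and 9.96% of all genes. Values were higher in both pairs for 9 of the 21 (27.8% of all genes), lower in both for 5 (32.5%) and opposite for 7 (39.7%). Log2 folds of the 21, ATF4 included, had a median of 0.10 (pair 1) and 0.19 (pair 2). DDIT3 (CHOP), a transcription factor of the stress response, rose, with 5.18 scaled reads with PBS and 32.8 with exosomes in pair 1, while pair 2 held 6.16 and 11.4 (log2 fold 1.62 ± 0.33, SE, limma adjusted p = 0.0453). TRIB3, a pseudokinase that restrains ATF4, was at 1.26 and 8.18 in pair 1, and pair 2 held 2.02 and 3.93 (log2 fold 1.37, limma adjusted p = 0.0526). ATF3, a stress-induced transcription factor, was at 0.235 and 2.17 in pair 1, and pair 2 held 3.18 and 5.19 (log2 fold 0.96, limma adjusted p = 0.0818). Asparagine synthetase, ASNS, was named after its values were seen, since it lay below the read minimum for named genes. It was at 0.471 and 1.18 in pair 1, and pair 2 held 0.106, which is 1 read, and 1.89 (limma adjusted p = 0.0792). The gene lower before adjustment was ATF5, also under the read minimum and named after its values were seen. ATF5 was at 1.57 and 0.888 in pair 1, and pair 2 held 2.02 and 0.944 (limma adjusted p = 0.27). PHGDH, PSPH, SHMT2 and CTH were the others lower in both pairs, and PHGDH shares its row with LOC607890. PPP1R15A (GADD34), which restores translation after stress, was at 16.4 and 34.1 scaled reads in pair 1, and pair 2 held 12.2 and 24.3 (limma adjusted p = 0.0621). CEBPG, a partner of ATF4, was at 10.05 and 19.6 in pair 1, and pair 2 held 17.5 and 19.98 (limma adjusted p = 0.317).

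None of 10 measured genes of glutathione and cystine use was called by limma (0 at an unadjusted p under 0.05 in either direction). Values were higher in both pairs for 2 (27.8% of all genes), lower in both for 4 (32.5%) and opposite for 4 (39.7%). GSS shares its row with GGT7. NFE2L2 (NRF2), the regulator of the antioxidant response, was at 97.3 and 182 scaled reads in pair 1, and pair 2 held 43.4 and 48.6 (limma adjusted p = 0.333). Of 17 measured glutamine and glutamate enzymes 0 were called by limma. Before adjustment, 1 was higher (ASNS) and 2 were lower at p under 0.05, beside 5.95% and 9.96% of all genes. In both pairs 7 had lower (32.5% of all genes) and 1 had higher values (27.8%), and 9 were opposite (39.7%). OAT, which interconverts ornithine and glutamate semialdehyde, was at 51.6 and 31.2 in pair 1, and pair 2 held 53.6 and 38.8 (limma adjusted p = 0.236). PPAT, which uses glutamine in purine synthesis, was at 42.5 and 25.9 in pair 1, and pair 2 held 65.1 and 51.2 (limma adjusted p = 0.306). Of 8 genes of branched-chain amino acid breakdown 0 were called by limma, also at an unadjusted p under 0.05. Values were higher in both pairs for 2 (27.8% of all genes), lower in both for 3 (32.5%) and opposite for 3 (39.7%). BCKDHA shares its row with TMEM91. BCAT1, the cytosolic aminotransferase, was at 116 and 105 in pair 1 and pair 2 held 99.5 and 76.1 (limma adjusted p = 0.671).

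The genes whose profile over the 4 libraries was most like that of SLC7A5 were CARS1, PDE3B, BCL6 and MIR8858. Likeness was the root mean square difference of log2(scaled reads + 1) after centring each gene, over 6962 named genes that reached 200 reads in 1 or more libraries of each pair. The difference was 0.12 for CARS1, 0.17 for PDE3B and 0.20 for BCL6 and MIR8858. CARS1, the synthetase that loads cysteine onto its transfer RNA, was at 27.1 and 103 scaled reads in pair 1, and pair 2 held 29.6 and 50.1 (limma adjusted p = 0.0526). The row named MIR8858 held 267 to 1353 scaled reads, and which transcript at that place gave them was not tested.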

How the data were processed

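The submitters' processing notes give CanFam3.1 as the build and list HISAT2 2.1.0, featureCounts 1.6.0, Trimmomatic 0.38, MultiQC and FastQC. Which settings were chosen is not given in the sources used here, nor is any use of strand. Per the file headers and log, DEGseq compared single libraries, after 30951 genes were reduced to 11838 and 89 (pair 1) and 58 (pair 2) outliers were removed. As deposited, library columns hold a signal, whole read counts over a factor for each library. A mean column by the authors is treated as a score. For log2 fold changes the authors set exosome over PBS, and the authors' p-values compare 1 library with 1.

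Every value (100%) was a whole multiple of the column's smallest, to within 0.001, so reads could be recovered. None was listed at 0. Reads summed to 9423566 to 12583026 over the genes of a table, and total depth is unknown. Columns were assigned to an arm by name and to a pair by table. That a pair is 1 dog comes from the design text and the authors' tables. Deviations from the arm means correlated at 0.818 within pairs, a value equal for both by construction.

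limma 3.58.1 in R 4.3.3 was fitted to log2(value + 1) of 11691 genes with the pair as a block and Benjamini-Hochberg adjustment. Such folds understate changes of low genes. It called 29 genes higher and 58 lower. Recovered reads were also tested with edgeR 4.0.16 (0 genes called, with 655 higher and 985 lower before adjustment at p under 0.05), DESeq2 1.42.0 and limma-voom. Scripts were tested on simulated data. Within-pair intervals are exact conditional binomial ones for a gene and normal approximations for a difference between genes.

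Members and lists were chosen with earlier results of these data known. The genes named are all members, called genes of each list and up to 4 more by unadjusted p among those with at least 50 reads in 1 or more libraries, 3 regulators, 4 genes most like SLC7A5 and label checks. Some genes the rule selects are not described. No genome or sequence was used.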

Additional observations from a re-analysis of the deposited data

Results flagged for a closer look

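For 3 transporters the exosome library was higher than its PBS control in one pair and lower in the other, with both counting intervals away from 0. The log2 fold of SLC7A6 was higher in pair 2 than in pair 1 by 0.75, at -0.54 and 0.20. For SLC38A1 the difference, pair 2 minus pair 1, was -0.70, from folds of 0.23 and -0.47. For SLC38A2 it was -0.88, from folds of 0.61 and -0.27. Each pair has 1 library per arm, so these differences between dogs were not tested, and dog, sex and a possible difference in exposure time cannot be told apart. Over all genes, 15.9% had a larger absolute difference between pairs than SLC38A2, 20.6% than SLC7A6 and 22.9% than SLC38A1.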

How the results depend on the processing

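Counts of called genes moved under nearly every alternative. The members called higher were 1 by limma with the pair block and 1 by DESeq2. They were 0 with no replicate block, with edgeR (by TMM or by DESeq2 size factors), with limma-voom, with a pseudocount of 0.1 and with values scaled to recovered totals. They were 2 with a pseudocount of 5, 3 among genes with a mean of at least 20 scaled reads, and 0 whichever library was left out. Members called lower were 0 in every fit run (at most 1 before adjustment at p under 0.05).

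Over all genes, 29 were higher and 58 lower. With no replicate block, edgeR with TMM factors, limma-voom, a pseudocount of 0.1 or recovered totals, 0 were higher and 0 lower. DESeq2 called 62 and 107, a pseudocount of 5 gave 202 and 408, edgeR with DESeq2 size factors 7 and 7, and the filter at a mean of 20 gave 219 and 384. With 1 library left out and no block, 0 were called in either direction (before adjustment at p under 0.05, 32 to 163 higher and 28 to 205 lower).

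Without the replicate block the log2 fold of SLC7A5 was also 1.35, at an adjusted p of 0.999 in limma. That fit called 0 genes in either direction, and some fits with the block lost the call too. The fold of SLC7A5 ran from 1.25 to 1.44 over the fits to all 4 libraries and from 0.77 to 1.93 with 1 library left out. Adjusted p was 0.22 with a pseudocount of 0.1, 0.316 with recovered totals, 0.068 by edgeR with DESeq2 size factors and 1.08e-06 with the filter at a mean of 20.

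Over the fits to all 4 libraries 0 of the 10 member folds turned sign. Those fits reuse the same libraries, and in limma the fold is the same with and without the block, so this says nothing about other dogs. SLC7A11 and SLC43A1 were not in the fit filtered at a mean of 20. With 1 library left out, log2 folds ran from -0.68 to 0.34 for SLC7A6, -2.54 to 1.299 for SLC43A1, -0.39 to 0.22 for SLC1A5, -0.19 to 1.69 for SLC1A4, -0.43 to 0.19 for SLC38A1 and -0.16 to 0.49 for SLC38A2. SLC3A2, SLC7A5, SLC7A11 and SLC7A1 kept their sign in the 4 such fits, which have no block, so that differences between dogs enter the folds. Depth limits SLC7A11 (20 to 54 reads per library) and SLC43A1 in pair 2 (10 and 14).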
